A study of Mus musculus with 2 samples.

Results

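The B cells of 2 mouse tumour samples were described here cell by cell. They were the cells that met a rule on marker genes: at least 3 unique molecular identifiers (UMIs, each counting 1 captured RNA molecule) of Cd79a, Cd79b and Ms4a1 together, at least 1 of Cd79a, 0 of Siglech, 0 of the CD3 chain genes Cd3d, Cd3e and Cd3g, and under 0.1% of the cell's UMIs from C1qa, C1qb and C1qc. The rule found 81 of 20602 kept cells, 30 in the library titled Control and 51 in the library titled Blood. Cd79a and Cd79b encode the signalling chains of the B cell receptor and Ms4a1 encodes CD20, so their levels chose the cells and are given as a description only.

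The series used wild-type C57BL/6 mice bearing subcutaneous syngeneic fibrosarcomas, tumours of connective tissue type grown from cells of the same mouse strain. Per the series' design text, the mice received autologous erythrocytes (red blood cells) in a saline buffer or the saline alone. Each arm is 1 droplet-based 3' single-cell RNA library (10x Genomics), and how many animals went into each, and whether cells were sorted, is not given in the sources used here. Title and treatment label disagree, since "Erythrocyte injected" is the treatment given for the sample titled Control and "PBS injected" that of the sample titled Blood. The libraries are therefore called by their titles, and no difference between them can be read as a response to erythrocytes. With 1 library per title there is no replicate and no test of any difference. Intervals are exact 95% intervals and cover counting error only.

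B lymphocytes recognise antigen through a membrane immunoglobulin, and a naive cell carries it as IgM and IgD, which are spliced from the same heavy chain transcript. After activation in a follicle a cell may enter a germinal centre, mutate and switch its heavy chain to IgG, IgA or IgE, and become a memory cell or an antibody-secreting plasma cell. B cells also present peptides on MHC class II to T cells, and in tumours they are found as scattered cells or gathered in lymphoid aggregates.

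The share of B cells among kept cells was 0.334% (interval 0.225% to 0.476%) in the library titled Control and 0.439% (0.327% to 0.577%) in the library titled Blood. The ratio of the shares was 1.32, with an interval from 0.822 to 2.14 that covers counting error only. How much shares differ between tumours of one arm was not measured. The B cells held a median of 3356 UMIs and 1391 genes, against 14670 UMIs in the macrophage reference and 5160 in the T cell reference. The macrophage reference is 7234 kept cells with at least 0.5% of UMIs from the C1q genes, the T cell reference 2535 cells with at least 3 UMIs of CD3 chains, and a dendritic cell reference 203 cells with at least 2 UMIs of Flt3 and Zbtb46 together. Each had 0 UMIs of Cd79a, Cd79b and Ms4a1 and met a limit on the genes of the other types. Of the kept barcodes 346 occurred in both libraries, and 1 of the B cells carried such a barcode.

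Cd79a was found with 823 UMIs over the 81 cells, with 1 to 40 per cell and a median of 9. Cd79b was found in 75 cells and Ms4a1 in 72, and 67 cells had all 3 genes. The summed UMIs of the rule genes ran from 3 to 66 per cell with a median of 16. Just inside the threshold lay 1 cell with a sum of 3, 2 with 4 and 2 with 5, and just outside lay 1 cell with a sum of 2 that met every other condition. Of 104 cells with enough marker UMIs, 8 were left out for CD3 chains and 16 for C1q (1 of them for both), and 0 for Siglech. Cells with both B cell genes and CD3 or C1q held a median of 9754 and 13580 UMIs.

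Of the 81 cells, 2 held over 15000 UMIs, with many UMIs of genes of other cell types. The cell with the lowest sum was the largest of all, with 109184 UMIs in the library titled Blood. It had 3 UMIs of Cd79a, 0 of Cd79b, Ms4a1, Ighm and Igkc, and 157 UMIs of Col1a1, 248 of Col3a1 and 222 of Sparc, genes of the collagen matrix, beside 52 UMIs of the proliferation gene Mki67 and 35 of the T cell receptor gene Trbc2. Its barcode was the one that both libraries shared. The other, in the library titled Control, had 20599 UMIs, 831 of them from Cst3. It had 14 and 6 UMIs of Xcr1 and Clec9a, genes of cross-presenting dendritic cells. It held B cell genes too, with 7 UMIs of Cd79a, 2 of Cd79b, 15 of Igkc, 1 of Ighm, 2 of Ebf1 and 1 of Pax5. These 2 cells held 29.1% of the UMIs of all 81 cells, 36.5% in the library titled Blood and 14.0% in the library titled Control. Counts of cells and UMIs below are over all 81 cells unless said otherwise. Levels in CPM, the count of a gene per 1000000 UMIs, are from the summed counts of the 79 other cells, and those of a gene absent from the 2 large cells are 1.41 times the level over all 81. The choice of the 79 was made after seeing these values.

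Markers of other cell types were also measured in the 79 cells. T cell markers summed to 3 UMIs, NK cell markers to 4, erythroid markers to 1, mesenchymal markers to 3 and mast and basophil markers to 0. The CD3 chain genes among the T cell markers were at 0 by the rule, so that sum was partly fixed by the selection. Plasmacytoid dendritic cell markers summed to 688 UMIs or 2177 CPM, of which 590 UMIs were of Ly6d, which B cells express too, 65 of Tcf4 and 29 of Bst2, while Siglech was at 0 by the rule and Klk1 and Smim5 were at 0. Conventional dendritic cell markers summed to 125 UMIs or 396 CPM, against 17906 CPM in the dendritic cell reference, which Flt3 and Zbtb46 of this list chose. Of the 125 UMIs, 118 were from Cst3, with Xcr1, Clec9a and Zbtb46 at 0. Macrophage markers summed to 942 UMIs or 2980 CPM, against 36695 CPM in the macrophage reference and 1175 CPM in the T cell reference, and all 10 of their genes were found. The C1q genes among them were limited by the rule in the B cells and chose the macrophage reference. The gap to that reference was thus partly fixed by the selection. Lyz2 was present in 39 of the 81 cells and Apoe in 71. After each cell was thinned to 1000 UMIs, Lyz2 remained in 22.5% of the B cells, the 2 large cells included, and in 17.8% of the T cell reference. The source of this RNA was not tested. Of the 400 neutrophil marker UMIs in all 81 cells, all were in the library titled Blood, and 2 of its cells had at least 40 UMIs of S100a8 or S100a9. A further pair of its cells had at least 40 UMIs of Lyz2. The part of these cells in the results below was not tested beyond giving values without them.

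**Figure D1:**
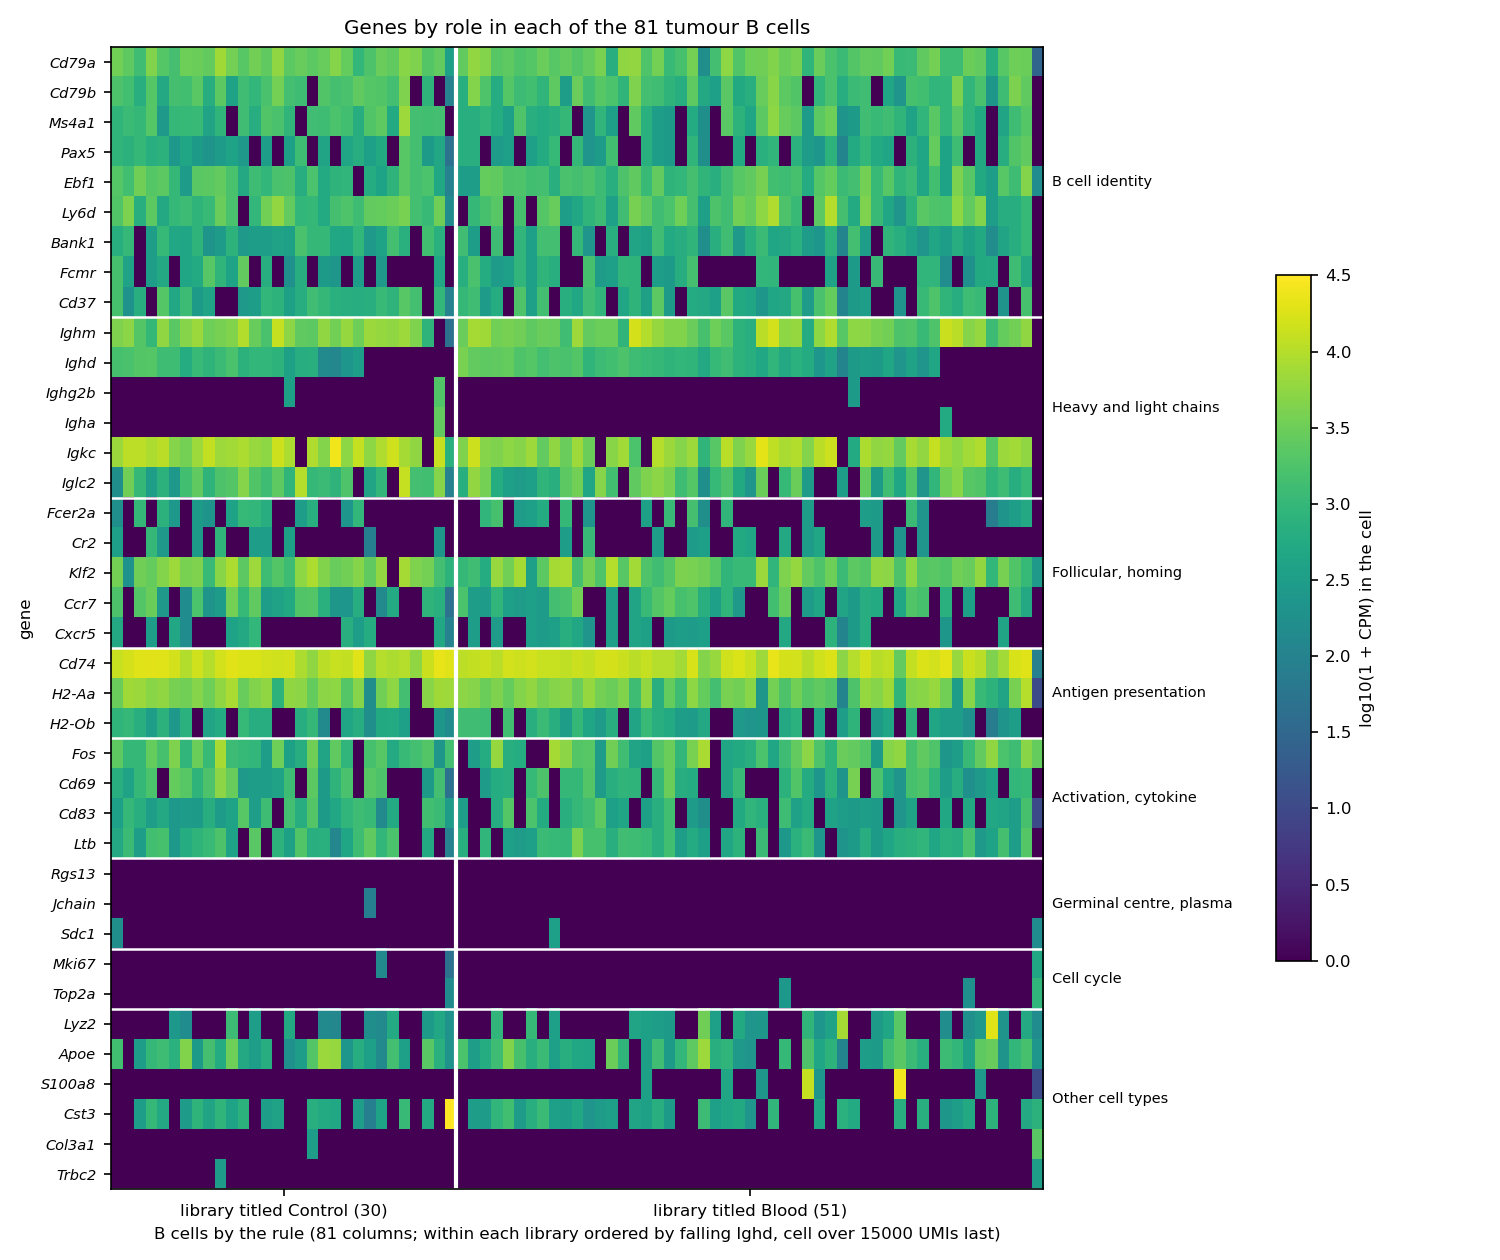
Level of each gene (rows, grouped by role) in each of the 81 cells (columns), as log10(1 + CPM) within the cell. Cd79a, Ighm and Cd74 fill nearly every column, Rgs13 is at 0 in all, and the last column of each library is a cell over 15000 UMIs, of which the one titled Blood shows Col3a1 and Mki67.

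The identity programme was broad. All 20 genes of the B cell identity list were found, with 3011 UMIs or 9527 CPM in the 79 cells and 6859 CPM over all 81. The same list came to 435 CPM in the macrophage reference, 245 CPM in the T cell reference and 452 CPM in the dendritic cell reference. By gene, 19 of 20 were at least 2-fold higher than in macrophages, where 19.8% of all 3818 measured genes were, 20 of 20 against T cells, where 13.1% of 3613 were, and 19 of 20 against dendritic cells, where 19.7% of 3616 were. In the other direction 0 of 20 were at least 2-fold lower, against a background of 25%, 15.6% and 19.1%. Because B cell genes chose the cells, these counts describe them and test nothing. In each single cell the list took a median of 9597 CPM, with an interquartile range of 7613 to 12170 CPM.

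Among its transcription factors, Ebf1, which starts the B lineage programme, was found in 80 of 81 cells with 451 UMIs, and the 2 large cells held 19 of those. Pax5, which keeps cells in the lineage, was found in 62 cells with 144 UMIs, at 452 CPM against 0.018 CPM in macrophages. Mef2c was found in 72 cells at 1022 CPM, Spib in 40 cells at 202 CPM, and Pou2af1, the B cell coactivator of octamer-binding factors, in 41 cells at 218 CPM. Among surface proteins, Ly6d was found in 75 cells with 593 UMIs, at 1867 CPM against 0.1 CPM in macrophages and 0.2 CPM in T cells. Cd37 was found in 67 cells, Bank1, an adaptor of receptor signalling, in 71 and Fcmr, the IgM Fc receptor, in 49.

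A rule that ranked genes of at least 100 CPM by their ratio to all other kept cells, with the genes of the selection rule, immunoglobulin, ribosomal and mitochondrial genes left out, named 20 genes, among them Ly6d, Ebf1, Pax5, Mzb1, Fcmr, H19, Scd1, Cd55, Fcrla, H2-Ob, Timp3, Bank1, Vpreb3, Pou2af1, Fcer2a, Siglecg, Tnfrsf13c, Ralgps2 and Spib. H19, an imprinted RNA, and Timp3, a metalloprotease inhibitor, were each found in 1 cell, the one with 109184 UMIs, with 146 and 108 UMIs, and are not genes of the other 79 cells. Scd1, a fatty acid desaturase, was found in 63 cells with 157 UMIs, at 462 CPM in the 79 cells against 5.4 CPM in all other kept cells. Cd55, a complement regulator, was found in 49 cells with 131 UMIs, at 414 CPM against 3.1 CPM. Siglecg, an inhibitory lectin of B cells, was found in 50 cells at 256 CPM, against 2.4 CPM in all other kept cells.

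Because Pou2af1 was among these genes, promoters were searched for the octamer that its partner factors bind, ATGCAAAT or its reverse complement ATTTGCAT. The windows ran from 250 bases before to 50 after each RefSeq gene start (GRCm38.p6). The octamer was in 1 of the 15 ranked genes with an entry and in 1 of 16 identity list genes, the same gene in both, against 532 of 27025 genes (1.97%). That gene was Vpreb3, a surrogate light chain relative kept in mature B cells, with 75 UMIs in 35 cells and 0.0089 CPM in macrophages. Its 100 bases before the start, chr10:75948200-75948299 on the plus strand, are shown with the octamer in capitals, which begins 45 bases before the start.
Vpreb3: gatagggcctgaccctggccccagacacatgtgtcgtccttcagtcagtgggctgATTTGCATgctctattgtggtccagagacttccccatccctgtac
The match is a description of these letters and says nothing of binding in these cells.

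The heavy chain was almost wholly unswitched. Ighm, the IgM constant region gene (chr12:113418558-113422730, mm10, minus strand), was found in 79 of 81 cells with 1474 UMIs, and Ighd (chr12:113406604-113416324) in 64 cells with 225 UMIs. A cell was called unswitched with at least 2 UMIs of Ighm and Ighd and more of these than of Ighg, Igha and Ighe, and 78 cells (96.3%, interval 89.6% to 99.2%) were. One cell, in the library titled Control, was switched, with 0 UMIs of Ighm and Ighd, 8 of Ighg2b and 11 of Igha. The 2 cells without a call were the 2 over 15000 UMIs. Ighg1, Ighg2c and Ighe had 0 UMIs among 445833, and 0 of 51 cells titled Blood were switched (interval up to 6.98%). RNA of switched classes was also found in cells called unswitched. In the library titled Blood, 1 cell had 7 Igha UMIs beside 171 of Ighm, and another had 1 Ighg2b UMI. In the library titled Control, 1 cell had 2 Ighg2b UMIs and another had 1 Ighg3 UMI.

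In the 79 cells Ighm ran from 0 to 77 UMIs per cell with a median of 20 in the library titled Control and from 2 to 171 with a median of 11.5 in the library titled Blood. Ighd ran from 0 to 9 with a median of 2 in the former and from 0 to 12 with a median of 3 in the latter. The ranges overlapped widely for both genes. Ighm RNA was also found outside the B cells, in 42.9% of the T cell reference with at most 16 UMIs and in 13.3% of the macrophage reference, whereas Ighd was in 0.868% and 0.194% of them. At 1000 UMIs a cell, Ighm remained in 91.2% of B cells and 13.6% of T cells, and Ighd in 43.8% and 0.2%.

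Both kinds of light chain RNA were found within single cells. Igkc, the kappa constant gene (chr6:70726435-70726966), was found in 75 cells with 2231 UMIs, and the lambda constant genes Iglc1, Iglc2 and Iglc3 with 970 UMIs together. A B cell normally keeps 1 light chain, yet by a rule of at least 90% Igkc for kappa and at most 10% for lambda, 8 cells were kappa, 6 lambda, 66 mixed and 1 undetermined. Igkc exceeded the lambda genes in 67 cells, and 66 of those also had lambda UMIs. In them the share of Igkc among light chain UMIs had a median of 79.2% and ran from 52% to 100%. Lambda exceeded Igkc in 10 cells, 5 of which had 0 Igkc UMIs, and the amounts were equal in 3 and both 0 in 1. In the Igkc-dominant cells Iglc2 had 352 UMIs in 61 cells, Iglc3 193 UMIs in 56 and Iglc1 96 UMIs in 28.

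Lambda RNA was rare in other cells. Iglc1, Iglc2 and Iglc3 had 0 UMIs in the T cell and dendritic cell references, and 3, 11 and 8 UMIs in the 7234 macrophages, while Igkc was in 120 T cells (4.73%) with up to 9 UMIs. The constant genes can share reads, and so their ends are shown, the last 90 coding bases of each gene's GENCODE M21 transcript to the stop codon, with capitals for bases that differ from Iglc2 (GRCm38; Iglc2 chr16:19198536-19198625, Iglc3 chr16:19065365-19065454 and Iglc1 chr16:19061752-19061841, minus strand; Igkc chr6:70726668-70726757, plus strand, not compared base by base).
Iglc2: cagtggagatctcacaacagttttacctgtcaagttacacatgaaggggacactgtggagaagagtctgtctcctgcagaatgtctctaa
Iglc3: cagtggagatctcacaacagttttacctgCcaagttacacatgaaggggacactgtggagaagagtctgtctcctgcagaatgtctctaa
Iglc1: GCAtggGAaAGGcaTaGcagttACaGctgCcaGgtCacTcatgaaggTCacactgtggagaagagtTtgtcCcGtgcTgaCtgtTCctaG
Igkc: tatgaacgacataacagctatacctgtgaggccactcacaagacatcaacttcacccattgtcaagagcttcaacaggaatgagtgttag
Iglc3 differs from Iglc2 at 1 of the 90 bases and Iglc1 at 27. Over the whole coding sequence Iglc2 and Iglc3 were 96.2% identical, so their separate counts are uncertain, and light chain calls use the sum of all 3 lambda genes. Iglc1 and Iglc2 were 73.3% identical and Igkc and Iglc2 52.9%. Over the last 200 bases of the transcripts, Iglc2 and Iglc3 were 90.2% identical, Iglc1 and Iglc2 58.0% and Igkc and Iglc2 41.4%. Any part of shared reads in the mixed calls was not tested. Variable region genes, far from the 3' end that was read, gave 7 UMIs for heavy, 10 for kappa and 1 for lambda, so 0 cells could be assigned a V gene and clonality was not measured.

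**Figure D2:**
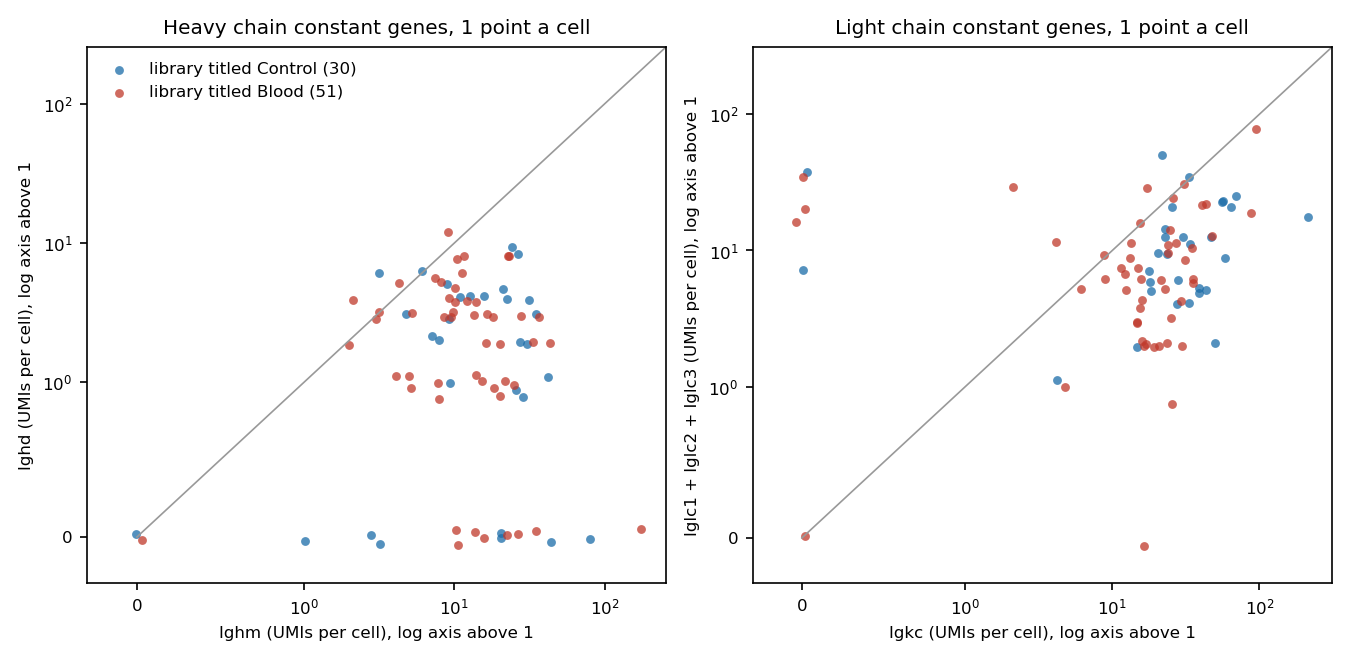
UMIs per cell of Ighm against Ighd (left) and of Igkc against the summed lambda constant genes (right), 1 point a cell, moved slightly to part overlapping points; axes are logarithmic above 1 and the line marks equal counts. The 15 cells at 0 Ighd UMIs among the 79 lie along the base of the left panel, and on the right most points lie below the line but above 0, the 66 cells with more Igkc that also hold lambda UMIs.

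Genes of naive and follicular B cells were found together. The 11 genes of that list summed to 8208 CPM in the B cells, against 1214 CPM in macrophages, 2970 CPM in T cells and 2569 CPM in dendritic cells, and all 11 were detected. Klf2, which holds lymphocytes in a quiescent, recirculating state, was found in 80 cells with 1079 UMIs, at 3265 CPM against 1042 CPM in T cells and 424 CPM in macrophages. Foxp1 was found in 75 cells at 819.5 CPM, Btg1, an antiproliferative factor, in 77 cells at 1323 CPM against 1404 CPM in T cells, and Bach2, a repressor of plasma cell fate, in 33 cells at 149 CPM. Fcer2a, the CD23 IgE receptor of follicular B cells, was found in 35 cells with 67 UMIs and at most 0.1 CPM in the references. Cr2, the complement receptor CD21, was found in 23 cells with 38 UMIs.

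Of the receptors for homing and egress, some were found in most cells and others in few. Ccr7, which guides cells to T zones, was found in 62 cells with 219 UMIs, at 690 CPM against 109 CPM in T cells and 899 CPM in dendritic cells. S1pr1, the egress receptor, was found in 52 cells at 310 CPM. Cxcr5, the follicle homing receptor, was found in 34 cells with 58 UMIs, and Cxcr4 in 61 cells at 687 CPM. Ccr6 was found in 13 cells and Cxcr3 in 4. Of the 14 genes in the list, 12 were measured against macrophages, 10 of them at least 2-fold higher (19.8% of all genes were) and 2 lower (25%), with a median log2 ratio of 2.35 beside -0.11 over all genes. Against T cells 8 of 14 were higher (13.1%) and 5 lower (15.6%), and against dendritic cells 6 of 12 were higher (19.7%) and 2 lower (19.1%).

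Genes of other B cell fates differed from list to list. The 12 germinal centre genes summed to 54 UMIs or 171 CPM in the 79 cells, against 308 to 828 CPM in the references, and the 9 immature genes to 13 UMIs. The plasma cell list came to 358 UMIs or 1133 CPM, against 593 to 627 CPM, and the marginal zone list to 547 UMIs or 1731 CPM, against 571 to 1406 CPM. The memory and atypical list came to 743 UMIs or 2351 CPM, below the 3757 to 5403 CPM of the references. Of the germinal centre list, Rgs13 and Nuggc had 0 UMIs in all 81 cells, and Bcl6 had 10 UMIs in 7 cells. Of the plasma cell list, Derl3 and Tnfrsf17, the BCMA receptor, had 0 UMIs, Jchain had 1 UMI, and 17 of the 19 Sdc1 UMIs lay in the largest cell. Mzb1, which is also a marginal zone gene, was found in 55 cells with 143 UMIs and Irf4 in 37 cells with 62 UMIs, whereas Prdm1, the master factor of plasma cells, had 5 UMIs in 3 cells. Of the immature list, Rag1, Rag2, Igll1, Vpreb1, Dntt and Erg had 0 UMIs. The B-1 list came to 227 UMIs or 718 CPM in the 79 cells, against 459 to 1420 CPM in the references. Of its 9 genes 8 were found, and Cd5 had 0 UMIs. Tbx21 and Itgax of atypical memory cells had 2 and 9 UMIs. For a gene at 0 the limit used is 3 UMIs among the 445833, a fixed floor and not one of the exact intervals.

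Within the 79 cells, 15 had 0 Ighd UMIs and 64 had at least 1, at median depths of 3747 and 3242 UMIs. This split was made after the data were seen, and its values are a description. The 15 cells had Fcer2a in 4 with 4 UMIs (49 CPM), against 31 of 64 with 63 UMIs (268 CPM), and Bcl2 in 2 with 3 UMIs, against 19 with 39. Ccr7 was at 308 CPM in the 15 and 822 CPM in the 64, and Btg2 at 185 and 643 CPM. In the other direction, Malt1, a signalling protease, was in 14 of 15 cells at 788 CPM against 33 of 64 at 319 CPM, and Ikzf3 in 12 of 15 at 431 CPM against 25 of 64 at 183 CPM. Plac8 was in 13 of 15 cells against 36 of 64, at 1686 and 801 CPM. S100a6, Cd44, Vim and Crip1, genes of memory lymphocytes that myeloid cells also express, stood at 2474, 468, 1206 and 2326 CPM in the 15 cells and at 353, 124, 400 and 775 CPM in the 64. Single cells carried much of this, since 1 of the 15 held 112 S100a6 UMIs, and 1 held 241 of their 255 Lyz2 UMIs. Ighm stood at 5834 CPM in the 15 cells, 1 of which held 171 of the 474 UMIs, and at 4255 CPM in the 64, and H2-Aa at 2720 and 3859 CPM.

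All 11 genes of the MHC class II list were found. They summed to 23892 CPM in the 79 cells, against 21388 CPM in macrophages, 43010 CPM in dendritic cells and 1721 CPM in T cells. Cd74, the invariant chain, was found in all 81 cells with 4372 UMIs, and in the 79 cells it ran from 4 to 110 UMIs per cell in the library titled Control and from 12 to 258 in the library titled Blood. H2-Aa, an alpha chain, was found in 80 cells at 3566 CPM, against 2853 CPM in macrophages and 7090 CPM in dendritic cells. The chains of H2-O, which restrains peptide loading in B cells, stood apart from the macrophage level, with H2-Ob in 60 cells at 405 CPM against 3.0 CPM, and H2-Oa in 38 cells at 190 CPM against 3.0 CPM. H2-DMb2 was at 449 CPM against 20.6 CPM and H2-DMb1 at 108 CPM against 426 CPM. These are near-identical copies, so their separate values are uncertain. Ctss, the protease that trims the invariant chain, was at 636 CPM in B cells and 3095 CPM in macrophages.

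Of the 16 B cell receptor signalling genes all were found, at 3123 CPM in B cells, 2718 CPM in macrophages and 958 CPM in T cells. Syk, the receptor-proximal kinase, was found in 64 cells at 554 CPM against 13.4 CPM in T cells. Blnk, its adaptor, was found in 45 cells at 269 CPM against 1.9 CPM in T cells and 58.8 CPM in macrophages, and Btk in 27 cells at 117 CPM. Of the survival receptors, Tnfrsf13c, the BAFF receptor, was found in 39 cells with 67 UMIs, at 212 CPM and at most 3.4 CPM in the references. Tnfrsf13b, or TACI, was found in 27 cells at 104 CPM and Cd40 in 21 cells at 72.8 CPM.

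Immediate early and activation genes took a median of 10070 CPM per cell, with an interquartile range of 6170 to 13620, against 6561 CPM and 4009 to 10150 in T cells, and the ranges overlapped. Fos was found in 76 cells, Junb in 76 and Jun in 70, at 2069, 1955 and 1196 CPM, and their levels in T cells were 982, 1827 and 647 CPM. Cd69, an early activation marker, was found in 62 cells at 886 CPM, against 529 CPM in T cells, and Cd83 in 63 cells at 579 CPM against 26.9 CPM. Egr1 was found in 31 cells with 386 UMIs, of which 52% lay in 1 cell. Of 18 genes in the list 9 were at least 2-fold higher than in T cells (13.1% of all genes were) and 2 lower (15.6%), with a median log2 ratio of 0.97 beside -0.09 over all genes. Tissue was digested at 37 °C for 45 min, and any part of this in the levels was not tested.

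Of the cytokines and regulators, Ltb, the lymphotoxin subunit that organises lymphoid tissue, was found in 69 cells at 785 CPM, against 754 CPM in T cells and 4.0 CPM in macrophages. Il12a, the p35 chain of IL-12 and IL-35, had 10 UMIs in 9 cells, 1 UMI titled Control and 9 titled Blood, against 0.13 CPM in macrophages and 0 UMIs in T and dendritic cells. Il10 had 7 UMIs in 4 cells, Lta 5 UMIs in 5 and Il6 4 UMIs in 2. Cd274, or PD-L1, was found in 28 cells at 111 CPM. Ligands that sustain or attract B cells were looked up after the data were seen. Tnfsf13b, or BAFF, was at 9.0 CPM over all kept cells that are not B cells and Cxcl13 at 0.23 CPM, and both were at 0 UMIs in the B cells.

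Outside the 2 large cells, transcripts of cell division and of glycolysis were low beside the references. The 24 cell cycle genes summed to 940 CPM in the 79 cells, against 3594 CPM in macrophages and 2650 CPM in T cells, and over all 81 cells to 3966 CPM. Mki67 had 54 UMIs, of which 52 lay in the largest cell and 1 in the 79 cells, and Top2a had 105, of which 2 lay in the 79. In the 79 cells 16 of the 24 genes had UMIs, 297 in all, led by Hmgb2 with 110 UMIs in 55 cells and the broadly expressed H2afz and Tubb5 with 63 and 56 in 41 and 33 cells. At 1000 UMIs a cell, Mki67 was in 0 of 80 B cells and in 7.23% of macrophages and 4.43% of T cells. These 80 include the 2 large cells, and the largest, with 52 Mki67 UMIs, kept 0 in the random thinning. The 20 genes of hypoxia and glycolysis summed to 2680 CPM, against 8034 CPM in macrophages and 5854 CPM in T cells. Of the 16 measured against macrophages 13 were at least 2-fold lower, where 25% of all genes were, and 0 higher. Ldha was at 225 CPM in B cells, 716 CPM in macrophages and 666 CPM in T cells, and Gapdh at 547, 2070 and 1542 CPM.

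**Figure D3:**
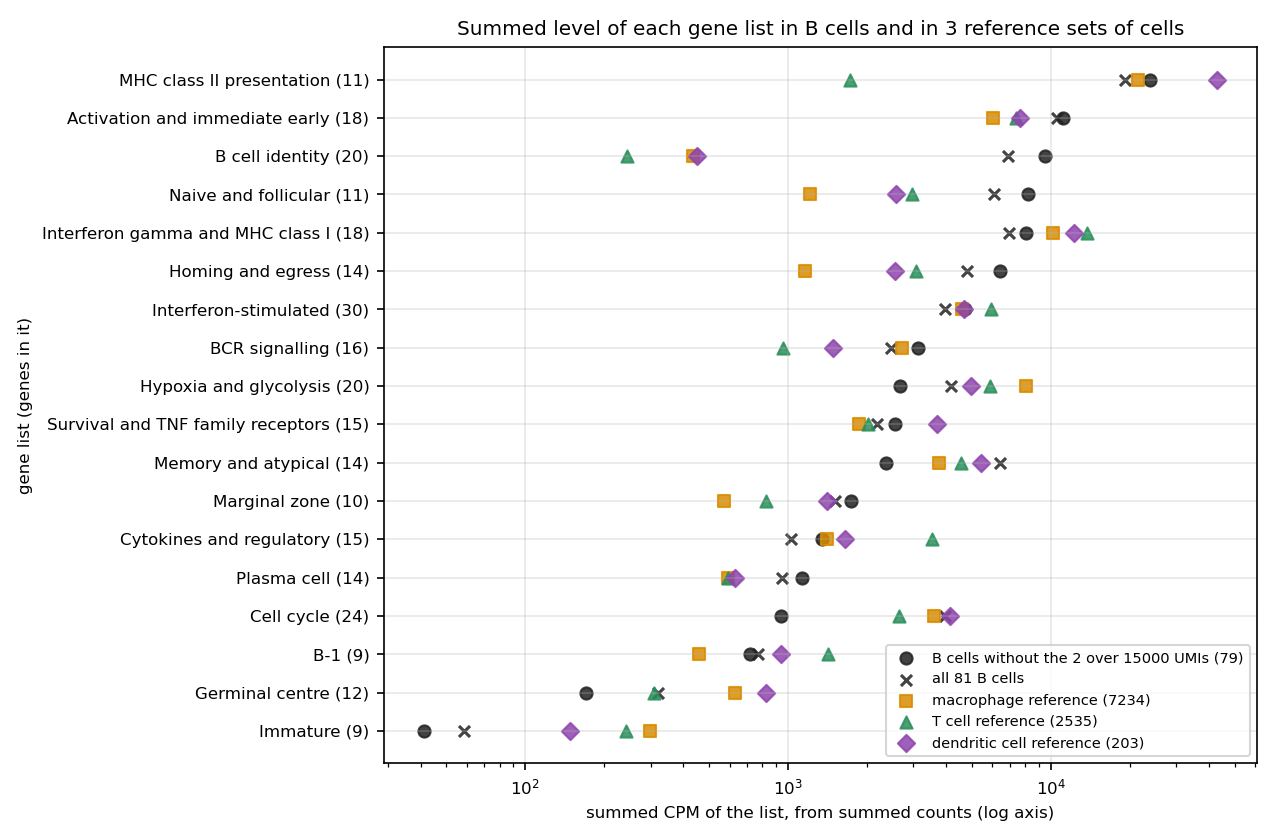
Summed CPM of each gene list (rows, log axis) in the 79 B cells (filled circles), in all 81 (crosses) and in the 3 reference sets. The circles lie to the right of every reference for identity, naive and follicular, homing, marginal zone, plasma cell, receptor signalling and activation genes. They lie to the left for cell cycle, glycolysis, germinal centre, memory, immature, cytokine, and interferon gamma and MHC class I genes. For cell cycle and glycolysis genes the crosses lie apart from the circles.

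The B cells of the 2 libraries were then set side by side. With all 81 cells, 3285 genes with at least 20 counts and at least 50 CPM in either library were measured, and 581 (17.7%) were at least 2-fold higher and 190 (5.78%) at least 2-fold lower in the library titled Blood. Single cells led the genes at both ends. Of the 8 highest, Sparc, Spp1, Col1a1, Col3a1, H19 and Dcn had at least 99% of their UMIs in 1 cell, and S100a8 and S100a9 had 70.2% and 81.5% in 1 of the cells rich in them, of 4552 UMIs. Of the 8 lowest, Plet1, Naaa, Ckb and Cst3 had 96.3%, 94.1%, 87.8% and 80.4% of their UMIs in 1 cell, and Bcl2a1d, Plbd1, Bcl2a1b and Id2 had 51.7% to 68.2%. Without the 2 cells, 188 of 2301 genes (8.17%) were higher and 72 (3.13%) lower. Without the 4 further cells rich in S100a8, S100a9 or Lyz2 as well, which left 29 and 46 cells, 113 of 2053 (5.5%) were higher and 60 (2.92%) lower.

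Genes of B cell identity and of MHC class II differed between the libraries with the 2 large cells and less without them. With all 81 cells, 1 of the 20 identity genes and 4 of the 11 MHC class II genes were at least 2-fold lower in the library titled Blood (5.78% of all genes were), with median log2 ratios of -0.50 and -0.84. Without the 2 cells, 0 of the 20 identity genes passed 2-fold in either direction, near the 8.17% and 3.13% of all genes, and their median log2 ratio was -0.05 beside 0.07 over all genes. Ebf1 stood at 1227 CPM in cells titled Control and 1460 CPM in cells titled Blood, which is 1.19 times as much (0.974 to 1.46), and Ighd at 633 and 764 CPM, or 1.21 times (0.912 to 1.61). Of the 11 MHC class II genes 0 then passed 2-fold, with a median of -0.28. Cd74 stood at 13182 and 12122 CPM, or 0.920 times (0.863 to 0.980), and H2-Aa at 4164 and 3168 CPM, or 0.761 times (0.676 to 0.857). Igkc stood at 8812 and 5813 CPM, or 0.660 times (0.606 to 0.718). These intervals treat UMIs as independent and do not hold the spread between cells, in which Igkc ran from 0 to 208 UMIs in the library titled Control and from 0 to 90 in the library titled Blood.

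Of 139 list genes measured both without the 2 large cells and without all 6, 5 were at least 2-fold higher and 5 lower without all 6 (3.60% each). These shares are near the 5.5% and 2.92% of all genes without all 6, so their number says nothing particular of the lists. In both settings 4 were higher (2.88%) and 5 lower (3.60%), for which no share over all genes is given here. They were Il4ra, Pgk1, Dusp1 and Itgb7, and Myc, Bcl2, Traf1, Gbp7 and S100a6. Il4ra, the IL-4 receptor chain, was found in 5 of 30 cells titled Control and 20 of 51 titled Blood, with 4 and 30 UMIs without the large cells, a ratio of 4.99 (1.76 to 19.5) that was 5.34 (1.86 to 21) without all 6. Pgk1, a glycolytic enzyme, was found in 5 and 20 cells, with a ratio of 5.06 (1.99 to 16.5) and 3.79 (1.42 to 12.7). Dusp1, an immediate early phosphatase, stood at 340 and 901 CPM, 2.65 times (1.89 to 3.79) higher without the large cells and 2.15 times (1.5 to 3.13) without all 6. In the other direction Myc was found in 15 of 30 cells titled Control and 9 of 51 titled Blood, with a ratio of 0.358 (0.200 to 0.625) and 0.426 (0.238 to 0.741). Bcl2, a survival factor, had a ratio of 0.370 (0.183 to 0.720) and 0.439 (0.217 to 0.855), Traf1 0.385 (0.217 to 0.668) and 0.437 (0.244 to 0.763). Itgb7, an integrin chain, had a ratio of 3.16 (1.05 to 12.8) and 3.16 (1.02 to 13), and Gbp7, an interferon-induced GTPase, 0.208 (0.0596 to 0.594) and 0.198 (0.0481 to 0.613). S100a6 was lower by ratio, 0.367 (0.285 to 0.471), but it was found in 8 of 30 cells titled Control and in 21 of 51 titled Blood, and 1 cell held 112 of the 183 UMIs titled Control.

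The 30 interferon-stimulated genes came to 554 UMIs or 3771 CPM in the library titled Control and 1207 UMIs or 4038 CPM in the library titled Blood. In the latter 1 cell held 241 UMIs and another, one of those rich in Lyz2, 229. Without the 2 large cells 4 of 12 measured genes passed 2-fold upward (background 8.17%), with Rsad2 at 3 and 26 UMIs and Ifi204 at 0 and 24, and without all 6 cells 0 of 7 did (background 5.5%). The median cell had 3913 CPM of these genes in the library titled Control, with an interquartile range of 3013 to 5485, and 3405 CPM in the library titled Blood, with a range of 2448 to 4986.

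**Figure D4:**
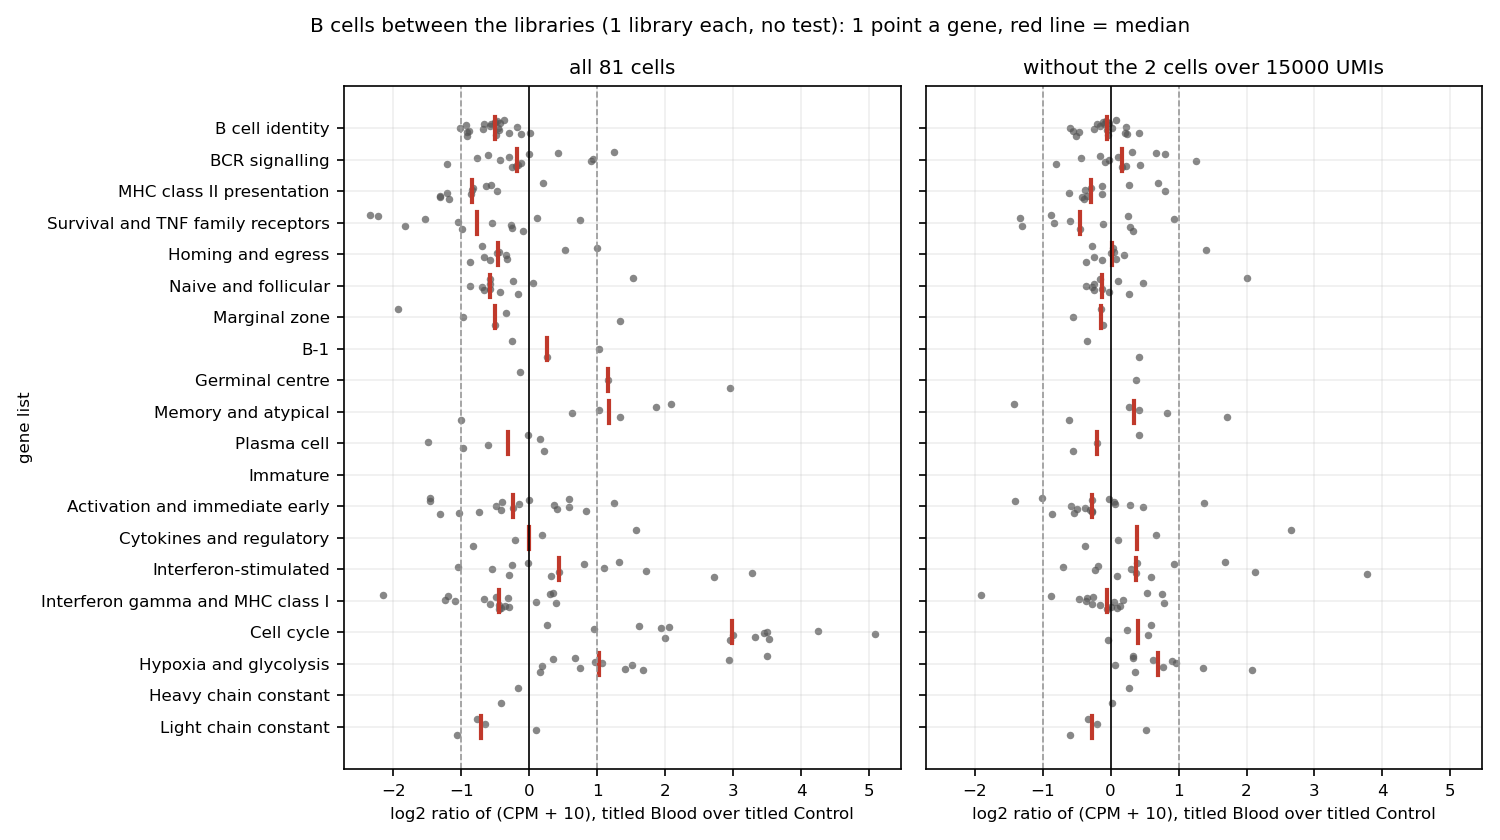
Log2 ratio of CPM + 10 between the libraries (titled Blood over titled Control) for the measured genes of each list, 1 point a gene, with the median of lists of at least 3 genes in red and dashed lines at 2-fold; all 81 cells on the left, without the 2 cells over 15000 UMIs on the right. The cell cycle median is 2.98 on the left and 0.40 on the right, where only 4 of its genes are measured.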

How the data were processed

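Both libraries' deposited raw UMI counts per gene and barcode were used. Per the submitters' processing notes, the authors used Cell Ranger 3.1.0 with mm10. The protocol in the labels describes minced tumours digested with collagenase B and DNase I, lysis of erythrocytes and the 10x single-cell 3' v3 kit. For the annotation release and the barcode calling: not given in the sources used here. Kept cells had 300 genes or more, 500 UMIs or more and no more than 20% of UMIs from mitochondrial genes, which left 8985 of 9475 barcodes titled Control (median 9385 UMIs) and 11617 of 12057 titled Blood (median 6690 UMIs).

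B cells were found by the marker rule in the report. The members and the gene lists were chosen with earlier results of these data known. Levels are CPM of counts summed over cells, and log2 ratios add 10 CPM to each value, which understates the change of low genes. UMIs of the 3' assay were not divided by gene length. Intervals are exact (Clopper-Pearson for shares, conditional for ratios) at the 95% level. No p-value was computed, since each title has 1 library. Genes were named as members of the fixed lists, as the 20 highest against other cells with at least 100 CPM, and as the 8 highest and lowest between libraries. Outside these rules, Btg2, Ikzf3, Crip1 and Cd44 in the split by Ighd, and the ligands Tnfsf13b and Cxcl13, were picked after the data were seen. Mitochondrial, ribosomal, predicted, globin, immunoglobulin and sex-linked genes were left out of the rankings. Some genes of the lists and rankings are not reported here by name. The ratio and interval calculations were tested on simulated data. Doublets were called with Scrublet (scanpy 1.11.5), which marked 162 (1.80%) and 276 (2.38%) cells where 7.19% and 9.29% were expected. These cells, 0 and 1 of them B cells, were left out in an alternative only. Promoters came from RefSeq (GRCm38.p6), and gene positions and light chain sequences from GENCODE M21 (GRCm38). Analyses used Python 3.11.15 and scipy 1.17.1.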

Additional observations from a re-analysis of the deposited data

How the results depend on the processing

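No paired analysis was possible because each title has 1 library and the labels give no replicate numbers, and for the same reason no library could be left out of a comparison. Between 30 and 82 cells met the rule under other limits on the marker sum, C1q, mitochondrial share and doublets. With C1q at 0 UMIs the shares were 0.156% (titled Control) and 0.138% (titled Blood) with a ratio of 0.884, and under the other settings the ratio ran from 1.25 to 1.35. Leaving out the 60 cells with at least 3 UMIs of macrophage (Lyz2, Apoe and C1q), T (Trac, Trbc1 and Trbc2), NK (Nkg7, Gzma and Gzmb) or neutrophil (S100a8 and S100a9) genes, a shorter set than the marker lists of the report, kept 21, all unswitched (100%). The settings chosen after seeing the data were leaving out the 2 cells over 15000 UMIs, leaving out these and the cells rich in S100a8, S100a9 or Lyz2, and calling light chains at 50% Igkc, which made 82.7% of cells kappa, 12.3% lambda and 3.70% mixed.

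The identity list, 6859 CPM over all 81 cells, was at 6558 CPM with a sum of at least 2, 9187 CPM with at least 6, 10980 CPM with C1q at 0, 12000 CPM without cells holding other types' markers, 8590 CPM and 6008 CPM in the libraries titled Control and Blood alone, 10130 CPM as a mean over cells and 9527 CPM without the 2 large cells. The cell cycle list, 3966 CPM, was at 1256 CPM with a sum of at least 6, 924 CPM with C1q at 0, 872 CPM without cells holding other types' markers, 1552 CPM and 5152 CPM in the single libraries, 1185 CPM as a mean over cells and 940 CPM without the 2 large cells, which removes the cell that held most of its UMIs.

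Genes at least 2-fold higher and lower in the library titled Blood, 581 and 190 of 3285, numbered 167 and 83 of 2352 with a sum of at least 6, 33 and 35 of 666 with C1q at 0, 22 and 18 of 404 without cells holding other types' markers, 1269 and 489 of 5780 with at least 10 counts and no CPM minimum, and 22 and 22 of 492 with cells thinned to 1000 UMIs. As a mean over cells they numbered 344 and 148 of 2933, without the 2 large cells 188 and 72, and without all 6 cells 113 and 60. Fewer cells or UMIs leave fewer genes measured by construction. The pseudocount does not enter these counts, which are taken from plain CPM.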
